A study of Mus musculus with 9 samples.

Results

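The 10 interleukin genes that activated macrophages are known to transcribe, Il1a, Il1b, Il1rn, Il6, Il10, Il12b, Il15, Il18, Il23a and Il27, were followed across 9 RNA sequencing libraries of RAW264.7 cells. They were chosen by gene symbol, as 10 of the 23282 gene rows of each library, and each symbol stood on 1 row. RAW264.7 is a virus-transformed macrophage line from BALB/c mice from which RANKL, the main cytokine of osteoclast formation, makes bone-resorbing osteoclasts. All 9 libraries came from this 1 line at passage 30 after 4 days of treatment, 3 libraries for each group. The negative control (NC) received RANKL alone at 50 ng/mL. The surface protein-treated group (SF) received RANKL at 50 ng/mL together with surface proteins of the bacterium Propionibacterium freudenreichii MJ2 at 10 µg/mL. The remaining group (MJ) received heat-killed MJ2 cells at 10000000 cells/mL, and the labels do not say for each of its libraries that RANKL was given too. None of the groups is labelled as untreated cells, and NC served as the reference for SF and for MJ. The sources do not say whether the 3 libraries of a group came from separate cultures, and p-values then measure only the spread between these libraries, which may be technical.

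Interleukins are secreted proteins by which immune cells signal to each other. IL-1α and IL-1β (Il1a, Il1b) bind the IL-1 receptor and start inflammation, and the IL-1 receptor antagonist (Il1rn) occupies the same receptor without activating it. IL-18 (Il18) belongs to the same family and, like IL-1β, is cut to its active form by caspase-1. IL-12, IL-23 and IL-27 are pairs of subunits: p40 (Il12b) joins p35 (Il12a) in IL-12 and p19 (Il23a) in IL-23, while p28 (Il27) joins EBI3 (Ebi3) in IL-27. IL-6 is an inflammatory cytokine, IL-10 an anti-inflammatory one, and IL-15 supports natural killer and T cells. In bone, IL-1 and IL-6 are known to promote osteoclast formation, and IL-10 and IL-27 to restrain it.

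Levels are given as adjusted reads, which is 2 raised to the deposited log2 value, minus 1. A single read was worth between 0.929 and 1.10 adjusted reads, and the total per library ran from 5930926 to 6503682. Where a gene has no read in a library, up to 3 reads would still be compatible with that count, and this floor covers counting error only. In 1 library of each group, rows without a read carry small values under 0.5, which are described as no read. Reads came from the 3′ end of transcripts, so their number does not grow with transcript length. The macrophage markers were all listed, with a summed level of 14735 to 16594 adjusted reads in NC, 22044 to 22800.3 in MJ and 17391 to 18979.9 in SF. By limma, 5 of the 7 tested macrophage markers were higher in SF than in NC (Adgre1, Fcgr3, Itgam, Lyz2 and Cd14, by 2.37 to 3.81 on the log2 scale) and Csf1r was lower (-1.47), beside 10.2% of all tested genes higher and 7.32% lower, with a median of 2.48. In MJ 4 of 7 were higher than in NC (Cd14, Lyz2, Fcgr3 and Itgam, by 2.26 to 3.10), beside 3.37% of all tested genes, with a median of 2.26, and the part of these changes in the results on interleukins was not tested. The 7 osteoclast markers were also all listed and summed to 16977 to 28130.0 in NC, 11963 to 13909.6 in MJ and 4939 to 7259 in SF, and the part of this shift in the results on interleukins was not tested. None of the NK cell and mast cell markers had a read. The summed T cell, B cell and epithelial cell markers reached at most 3.85, 10.7 and 7.34 adjusted reads, those of endothelial cells 16.3, those of fibroblasts 41.8 and those of dendritic cells 46.9. Of the 5 neutrophil markers 4 were listed and 2 of these had no read, and their sum, nearly all of it S100a8, was at most 0.112 in NC, 1900 to 2056 in MJ and 113 to 209 in SF.

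The promoter of Il1rn is shown because Il1rn passed the test in SF against NC and has an entry in the promoter table. It was also the member with the most reads in every library. The gene lies on the plus strand at chr2:24336853-24351494 (GENCODE M21, GRCm38, the assembly also called mm10) with 6 annotated transcripts. RefSeq (GRCm38.p6) gives start sites in 2 places, and the windows run from 250 bases before to 50 bases after a start, 5′ to 3′, with a match to a searched motif in capitals. The first window, at the start of the gene, is chr2:24336610-24336909.
Il1rn, upstream start: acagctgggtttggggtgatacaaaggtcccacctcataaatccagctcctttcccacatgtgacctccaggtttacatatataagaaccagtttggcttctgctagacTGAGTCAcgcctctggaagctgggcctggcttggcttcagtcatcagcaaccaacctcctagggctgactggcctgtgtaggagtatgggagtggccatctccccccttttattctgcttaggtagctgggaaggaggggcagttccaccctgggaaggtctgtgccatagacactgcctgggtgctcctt
The second window, chr2:24345041-24345340, lies inside the gene, and another window overlaps it and is not printed.
Il1rn, downstream start: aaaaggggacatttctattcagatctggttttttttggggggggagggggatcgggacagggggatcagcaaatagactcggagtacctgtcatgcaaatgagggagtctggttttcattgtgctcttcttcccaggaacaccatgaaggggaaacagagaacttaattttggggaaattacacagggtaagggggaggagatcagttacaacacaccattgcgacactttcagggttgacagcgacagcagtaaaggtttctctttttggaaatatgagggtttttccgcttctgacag
The 4 motifs, searched on both strands, were the NF-κB consensus (by name, 4.51% of 32851 promoters of this length hold it), C/EBP (TTGCNNAA, 10.8%), AP-1 (TGANTCA, 7.81%) and the interferon-stimulated response element (GAAA, any 2 bases, then GAAA, 3.44%). The upstream window holds 1 AP-1 match, from -141 to -135 relative to the start, and the other Il1rn windows hold none of the 4. A match describes letters only, and reads from the 3′ end do not tell which start was used. Of the 10 members 6 have a promoter in the table, and Il10, Il15, Il23a and Il27 do not. Among the others, the window of Il6 holds an AP-1, a C/EBP and an NF-κB match, and that of Il1a an AP-1 match.

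In plain terms, cells given heat-killed MJ2 held far more Il1rn and Il1b than cells given RANKL alone. Cells given surface proteins held more Il23a and Il1rn and less Il15. The differences in Il1b with heat-killed MJ2, and in Il1rn and Il15 with surface proteins, did not pass without certain single libraries. Fewer cells of a type and less RNA per cell cannot be told apart in these bulk samples. SF against NC and MJ against NC share the NC libraries, so their values for a gene are not independent. A gene was tested where at least 3 of the 6 libraries of a comparison held 10 adjusted reads or more, and it passed at an adjusted p under 0.05 (limma, Benjamini-Hochberg over all tested genes) with a fold change of at least 2. In SF against NC 5 of the 10 members were tested, 2 passed as higher and 1 as lower, beside 17.5% of all 10874 tested genes in either direction (10.2% higher, 7.32% lower). In MJ against NC 5 were tested and 2 passed by limma, both higher, beside 4.26% of 10814 genes (3.37% higher, 0.897% lower). With an unadjusted limma p under 0.05, 2 were higher and none lower there, beside 12% and 10.6% of all tested genes. In SF against MJ 6 were tested, 1 passed as higher and 2 as lower, beside 10.1% of 10916 genes (5.08% higher, 4.97% lower). Il23a in SF against NC and Il1b in MJ against NC reached the filter only through the group in which they were high, so these counts are no support for a trend of the members. The median log2 fold change of all tested genes was -0.01, 0 and 0.03 in the 3 comparisons. With 3 libraries against 3, the smallest p of an exact two-sided permutation test is 0.1, and it was reached wherever the groups did not overlap. Among the tested members the groups did not overlap for 4 of 5 in SF against NC, 2 of 5 in MJ against NC and 4 of 6 in SF against MJ (in SF against NC, Il10 by the scaling alone), beside 48.4%, 30.2% and 42.3% of all tested genes. For Il23a in SF against NC and Il1b in MJ against NC the filter itself fixed this outcome. These counts are thus no support for a trend of the members either.

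**Figure D1:**
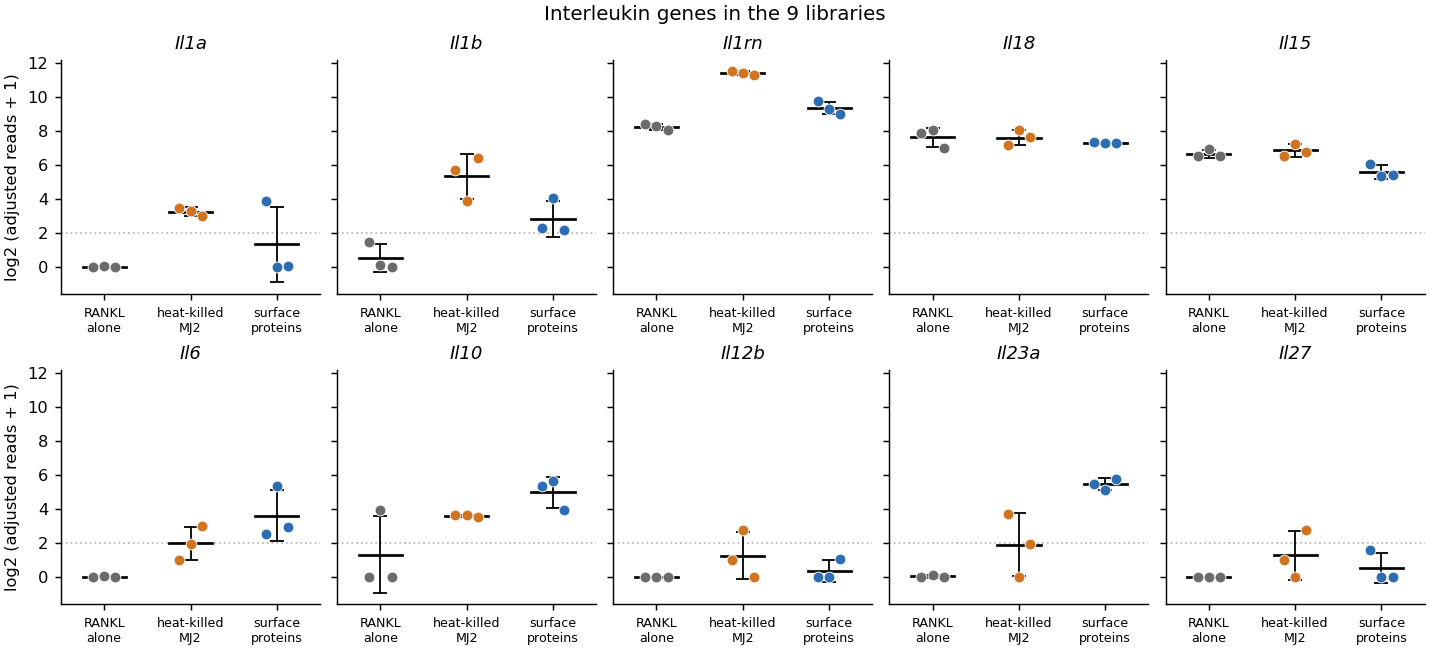
Level of each of the 10 interleukin genes in the 9 libraries, as log2 (adjusted reads + 1) by group, with a point per library, a bar at the mean of 3 libraries, an error bar of 1 SD and a dotted line at the floor of 3 adjusted reads. Il1rn in heat-killed MJ2 lies between 11.3 and 11.5, above all SF and NC libraries, while Il23a lies far above the floor in the 3 SF libraries and in 1 MJ library.

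Il1rn, the antagonist, was the most abundant member. RANKL alone gave 334, 309 and 263 adjusted reads in replicates 1 to 3, heat-killed MJ2 gave 2948, 2733 and 2498, and surface proteins gave 846, 632 and 511. The 3 groups did not overlap, with SF between the other two. On the log2 scale the means were 8.24 ± 0.17 in NC, 11.41 ± 0.12 in MJ and 9.34 ± 0.37 in SF (SD, n = 3). The mean level in MJ was 9.03 times that of NC, a log2 fold change of 3.17 (SE 0.15, 95% interval 2.81 to 3.54, adjusted p = 3.3e-04 by limma). In SF it was 2.20 times that of NC, a log2 fold change of 1.11 (SE 0.22, interval 0.57 to 1.65, adjusted p = 0.015). The direct comparison put SF below MJ, with a log2 fold change of -2.07 (SE 0.21, interval -2.58 to -1.55, adjusted p = 0.0067) and a mean in MJ 4.11 times that of SF. The rise in SF lay close to the fold threshold: without SF replicate 1 its log2 fold change was 0.92 (adjusted p = 0.027), under the 2-fold limit.

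Il1b, the agonist that is released after caspase-1 cleavage, lies on the minus strand at chr2:129364570-129371139. It had 2 reads in all 3 NC libraries together, with values of 1.79 adjusted reads in replicate 1 and no read in replicates 2 and 3. In MJ it stood at 51.1, 13.5 and 84.6, and in SF at 3.88, 15.3 and 3.42. All MJ and SF libraries thus lay above all NC libraries, and SF replicate 2 overlapped the MJ range. SF was set apart from NC by few reads: SF replicate 3 held 3 and SF replicate 1 held 4, against 2 in NC replicate 1. Against NC, Il1b rose in MJ with a log2 fold change of 4.79 (SE 0.73, interval 3.04 to 6.55, adjusted p = 0.021 by limma). As reads the comparison was 150 against 2, a ratio of 74.1 whose exact counting interval runs from 20.2 to 617. For SF, 23 reads against 2 gave a ratio of 11.6 (counting interval 2.88 to 102). These intervals do not cover the spread between libraries. Both ratios rest on the reads of NC replicate 1: without it NC had no read, and the mean was at least 16.6-fold higher in MJ and at least 2.52-fold higher in SF. The ratio of mean adjusted reads of MJ to NC, 79.6, was 51.7 without MJ replicate 3, 109 without MJ replicate 2 and 53.1 without NC replicate 3. That of SF to NC, 12.1, was 5.85 without SF replicate 2 and 8.06 without NC replicate 3. SF against NC was under the filter for this gene, and a fit without the filter gave a log2 fold change of 2.29 (SE 0.69, adjusted p = 0.087). SF against MJ gave -2.51 (SE 0.78, interval -4.40 to -0.61, adjusted p = 0.074), which did not pass. The call in MJ was lost without NC replicate 2 (adjusted p = 0.059) or NC replicate 3 (0.062), and Il1b was under the filter when any MJ library was left out.

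Il1a, which encodes the IL-1α agonist and lies beside Il1b at chr2:129299610-129309972 on the minus strand, had no read in NC. It had 10.2, 8.75 and 6.88 adjusted reads in the MJ libraries. In SF only replicate 1 held it, at 13.8, and the other two had no read. It was under the filter in every comparison. The mean in MJ was at least 2.87-fold higher than in NC, with the floor of 3 reads per library taken for NC. A fit without the filter put MJ above NC by 3.23 on the log2 scale (SE 0.14, adjusted p = 0.0027), a value that depends on the constant added before the log. The gene Gm14023 overlaps Il1a on the other strand with 0 to 9.60 adjusted reads, and Il1bos overlaps Il1b with at most 4.84, and since the sources do not say whether strand was used in counting, their reads cannot be told apart from those of Il1a and Il1b.

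The 2 agonists stayed far below the antagonist in every library. The reads of Il1a and Il1b made up 0.534%, 0.0424% and 0% of the reads of Il1a, Il1b and Il1rn in the NC libraries. In MJ the share was 2.04%, 0.808% and 3.53%, and in SF 2.04%, 2.37% and 0.677%. All MJ and SF libraries lay above all NC libraries, and MJ and SF overlapped. The lowest SF share rests on 3 reads of Il1b in replicate 3, and the highest NC share on 2 in replicate 1. Il1rn alone made up 43.9% to 55.0% of the reads of the 10 genes in NC, 85.4% to 90.2% in MJ and 65.1% to 71.5% in SF. The summed reads of the 10 genes were 659, 704 and 478 in NC, 3267, 3183 and 2924 in MJ and 1183, 961 and 784 in SF.

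**Figure D2:**
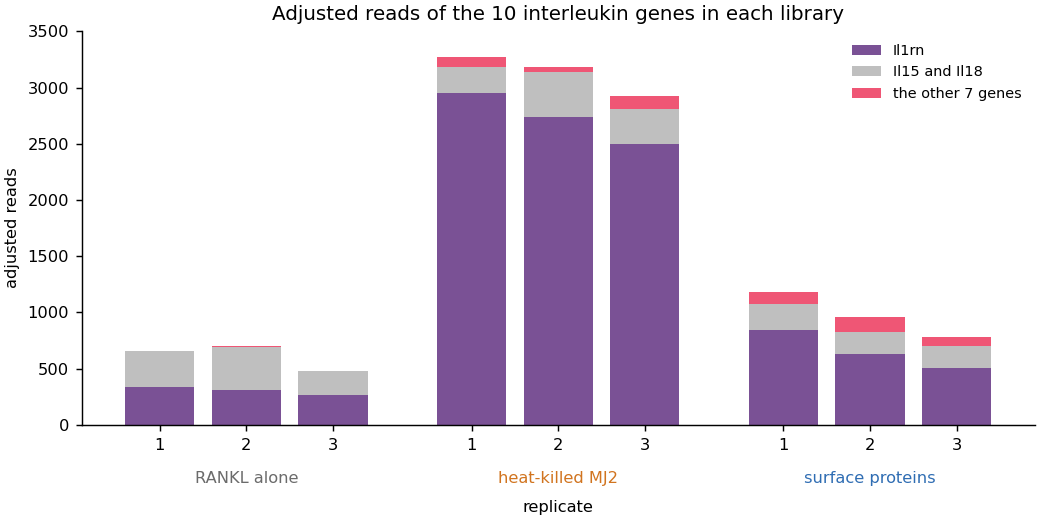
Adjusted reads of the 10 interleukin genes stacked in each of the 9 libraries, split into Il1rn, Il15 with Il18, and the other 7 genes. Il1rn fills 85.4% to 90.2% of the bars in heat-killed MJ2, and Il15 with Il18 fill 45.0% to 54.0% in RANKL alone.

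Il18, at chr9:50554827-50581840 on the plus strand, was read in every library. It stood at 232, 261 and 126 adjusted reads in NC, at 140, 258 and 199 in MJ and at 162, 154 and 153 in SF. The 3 groups overlapped, and the SF libraries lay inside the range of NC, which reached below SF through NC replicate 3 alone. The log2 fold change was -0.33 in SF against NC (interval -1.02 to 0.36, adjusted p = 0.42), -0.02 in MJ against NC (interval -0.87 to 0.82, adjusted p = 0.98) and -0.31 in SF against MJ (interval -0.87 to 0.26, adjusted p = 0.39, all by limma). None of these passed, and the intervals leave room for changes of either sign. The direction in MJ turned with the scaling and with the library left out. That in SF against NC ran from -0.65 to -0.13 with a library left out (adjusted p from 0.044 to 0.77 by limma), under the fold limit throughout. Bco2 and Tex12, which overlap Il18 on the other strand, held at most 30.1 and 17.4 adjusted reads.

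Il23a, the p19 subunit of IL-23, lies at chr10:128296139-128298752 on the minus strand. It had no read in the NC libraries and 44.1, 33.7 and 54.3 adjusted reads in the SF libraries. In MJ it stood at 12.3 in replicate 1, had no read in replicate 2 and stood at 2.92 in replicate 3. SF thus lay above both other groups in all 3 libraries, and MJ overlapped NC. The mean level in SF, 44.0 adjusted reads, was at least 14.7-fold higher than in NC. The fitted log2 fold change was 5.43 (SE 0.20, interval 4.95 to 5.91, adjusted p = 6.3e-05 by limma), and its size depends on the constant added before the log. Against MJ the mean was 8.69 times as high (30.2 times without MJ replicate 1 and 5.79 times without MJ replicate 2), with a log2 fold change of 3.57 (SE 0.88, interval 1.44 to 5.70, adjusted p = 0.040). That call was lost without MJ replicate 3, SF replicate 1, SF replicate 2 or SF replicate 3 (adjusted p from 0.081 to 0.10), and without the filter (0.092). MJ against NC was under the filter, and a fit without it gave 1.86 (SE 0.98, adjusted p = 0.40).

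Il12b, the p40 subunit that IL-12 and IL-23 share, lies at chr11:44400063-44414033 on the plus strand and stayed near the floor. It had no read in NC, 1.02, 5.89 and 0 adjusted reads in MJ, and a read only in replicate 3 of SF, at 1.10. Il12a, its partner in IL-12, had no read in any of the 9 libraries, which allows up to 3 reads in each. Il27, at chr7:126589010-126594941 on the minus strand, had no read in NC, 1.03, 0 and 5.94 adjusted reads in MJ, and a read only in SF replicate 1, at 1.97. No fold is given for Il12b and Il27, since all group means were at or under the floor, and differences between groups were not detectable at this depth. Apobr, which overlaps Il27 on the other strand, held 504 to 783.2 adjusted reads. Ebi3, the partner of p28 in IL-27, was by contrast read in all libraries. It had 168, 197 and 165 adjusted reads in NC, 368, 400 and 345 in MJ and 579, 994 and 796 in SF, and the 3 groups did not overlap. It rose in SF by 2.12 (SE 0.23, adjusted p = 0.0021 by limma) and in MJ by 1.07 (SE 0.14, adjusted p = 0.014) on the log2 scale, and was higher in SF than in MJ by 1.05 (SE 0.22, adjusted p = 0.026). Among the 5 subunit genes of the IL-12 family, Ebi3 was thus read throughout, Il23a mainly in SF, and Il12a, Il12b and Il27 hardly at all.

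**Figure D3:**
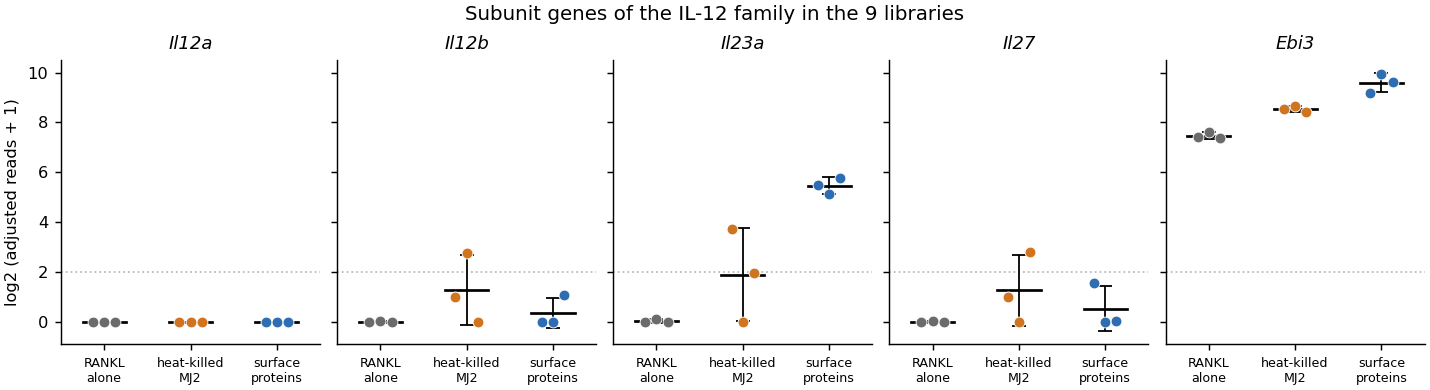
Subunit genes of IL-12, IL-23 and IL-27 as log2 (adjusted reads + 1) by group, with a point per library, a bar at the mean of 3 libraries, an error bar of 1 SD and a dotted line at the floor of 3 adjusted reads. Il12a is at 0 in all 9 libraries, Il12b and Il27 stay near the floor, Il23a stands clear of it in all 3 SF libraries, and the Ebi3 levels of the 3 groups do not overlap.

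Il10, at chr1:131019845-131024974 on the plus strand, stood at 40.2, 48.2 and 14.3 adjusted reads in SF and at 11.3, 11.6 and 10.8 in MJ. In NC it had no read in replicates 1 and 3 and 14.0 adjusted reads in replicate 2. The lowest SF library lay just above that NC library only through the scaling of the libraries, since both held 13 reads, and NC and MJ overlapped. The log2 fold change was 3.67 in SF against NC (SE 1.13, interval 0.95 to 6.39, adjusted p = 0.053) and 2.31 in MJ against NC (SE 1.05, interval -0.22 to 4.84, adjusted p = 0.26, both by limma), and neither passed. Both depended on NC replicate 2. Without it Il10 was higher in SF by 4.97 on the log2 scale (adjusted p = 0.0045) and in MJ by 3.61 (adjusted p = 0.0012). Replicate 2 of NC also stood apart from the other NC libraries in Atf3, a stress-induced transcription factor, with 146 adjusted reads against 14.0 and 5.91, and in Il7r, a receptor subunit, with 19.5 against none. S100a8 had no read in it. These genes were chosen after their values were seen. In SF against MJ the Il10 means differed 3.05 times without overlap, a log2 fold change of 1.36 (SE 0.43, interval 0.31 to 2.41, adjusted p = 0.077), which did not pass, though it did without SF replicate 3 (1.88, adjusted p = 0.021).

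Il6, at chr5:30013114-30019981 on the plus strand, had no read in NC. It stood at 1.04, 2.87 and 6.87 adjusted reads in MJ and at 4.88, 39.7 and 6.60 in SF. Every MJ and SF library lay above NC, the ranges of MJ and SF overlapped, and SF replicate 2 carried 41 of the 52 reads of its group. MJ replicate 1 held 1 read and MJ replicate 2 held 3, which is within the floor of 3 reads for NC. The mean in SF was at least 5.69-fold higher than in NC, and without SF replicate 2 at least 1.91-fold higher. Il6 was under the filter in all 3 comparisons. A fit without the filter put SF above NC by 3.58 on the log2 scale (SE 0.79, adjusted p = 0.039) and MJ above NC by 1.96 (SE 0.51, adjusted p = 0.14), again with values that depend on the constant.

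Il15, at chr8:82331632-82403222 on the minus strand, was the only tested member that passed as lower in SF against NC. It had 91.9, 120 and 89.9 adjusted reads in NC, 91.0, 149 and 109 in MJ and 65.5, 39.3 and 40.7 in SF. All SF libraries lay below all NC and MJ libraries, and NC and MJ overlapped. In SF it fell by 1.06 on the log2 scale against NC (SE 0.25, interval -1.66 to -0.47, adjusted p = 0.022 by limma), with a mean in NC 2.07 times that of SF. Against MJ it was lower by a log2 fold change of -1.25 (SE 0.27, interval -1.92 to -0.59, adjusted p = 0.030). MJ against NC gave 0.19 (interval -0.36 to 0.74, adjusted p = 0.67). The call against NC did not hold without NC replicate 1, NC replicate 2, SF replicate 2 or SF replicate 3 (adjusted p from 0.051 to 0.072), and that against MJ was lost without MJ replicate 1, 2 or 3 or without SF replicate 2 or 3 (0.055 to 0.087), and also without the filter (0.064) or with a filter on the mean (0.054).

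**Figure D4:**
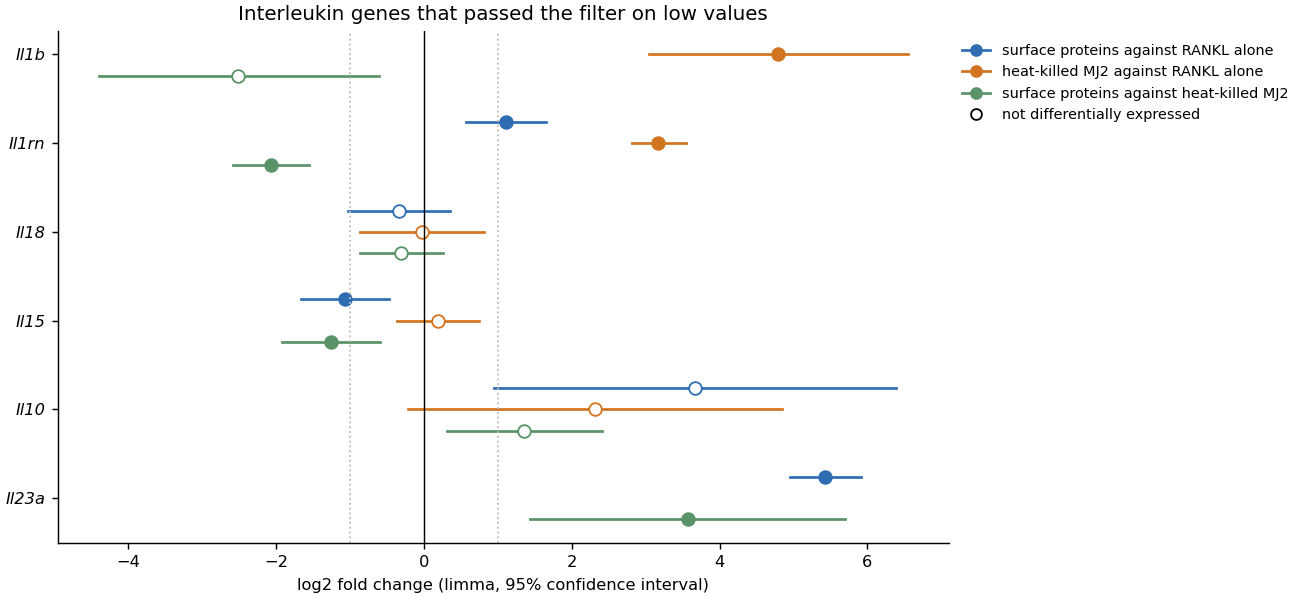
Log2 fold changes of the tested members in SF against NC, MJ against NC and SF against MJ, with 95% intervals from limma; members under the filter of 10 adjusted reads in 3 of 6 libraries are not drawn. Il1rn is higher in MJ by 3.17 and in SF by 1.11, Il23a is higher in SF by 5.43, and the intervals of Il18 include 0 in all 3 comparisons.

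By mean level, Il1a, Il1b, Il1rn, Il12b and Il27 were in the order MJ, SF, NC, and Il6, Il10 and Il23a in the order SF, MJ, NC. Of the neighbours in these orders, SF and MJ overlapped for Il1a, Il1b and Il6, MJ and NC for Il10 and Il23a, and SF and NC for Il1a, while for Il12b and Il27 all 3 groups overlapped. Only Il15 and Il18 had their lowest mean in SF. Across the 9 libraries the log2 levels of Il1rn went with those of Il1b (r = 0.896) and Il1a (r = 0.848), and those of Il15 ran against those of Il23a (r = -0.828). These correlations are descriptions over 9 libraries that fall into 3 groups. Measured the same way among 11193 genes, the genes most like Il1rn were Stfa3 (r = 0.982), Odc1, the first enzyme of polyamine synthesis (0.982), and Cd52 (0.978). Those most like Il23a were Maats1 (0.987), Klk8 (0.982) and Srcin1 (0.982), and those most like Il10 were Cdk17 (0.983), Cda (0.980) and Tmem30a (0.971). Ctps, an enzyme of CTP synthesis, was most like Il15 (0.972), followed by Ap1m1 (0.960) and Ftsj3 (0.951). The closest genes to Il18, Slc25a22 (0.894), Thg1l (0.887) and Trmt5 (0.875), were less alike.

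Among other interleukin ligands and partner subunits, 31 of the 35 symbols looked for were listed. The 4 missing are the newer symbols of the IL-36 genes, which the files list as Il1f5, Il1f6, Il1f8 and Il1f9. Of the 31, 16 had no read in any library. In SF against NC 4 were tested and 3 passed, all higher, beside 10.2% of all tested genes, with a median log2 fold change of 1.95. They were Ebi3, Il1f9 (4.09, SE 0.34, adjusted p = 9.1e-04 by limma), which encodes the agonist IL-36γ, and Il16 (1.77, SE 0.25, adjusted p = 0.0048), a T cell attractant. In MJ against NC 5 were tested and 3 passed as higher, beside 3.37% of all tested genes, with a median of 1.76: Ebi3, Il1f9 (5.40, SE 0.29, adjusted p = 4.9e-04) and Il1f6 (4.76, SE 0.28, adjusted p = 6.6e-04), which encodes IL-36α. Il1f9 had 51.1, 46.5 and 64.8 adjusted reads in MJ, 14.7, 26.9 and 23.1 in SF, and in NC a read in replicate 3 only, at 0.974. Il1f6 had 41.8, 23.3 and 19.6 in MJ, 10.8, 0.913 and 6.66 in SF and no read in NC. Both reached the filter against NC only through the treated group, so these counts are no support for a trend of the list, and their fitted changes depend on the constant. Against NC the mean of Il1f6 was at least 9.42-fold higher in MJ. For Il1f9, 164 reads in MJ against 1 in NC gave a ratio of 162 (counting interval 28.7 to 6436), and 64 against 1 in SF a ratio of 64.8 (counting interval 11.2 to 2598). All MJ libraries thus lay above all SF libraries for both genes, whereas Il1f5 and Il1f8 had no read in any library. In SF against MJ 7 were tested with a median of -0.40, beside 5.08% of all genes higher and 4.97% lower, and Il1f9 passed as lower (-1.32, SE 0.26, adjusted p = 0.023) and Ebi3 as higher.

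Of the 28 interleukin receptors and decoys 17 were tested in SF against NC and 18 in the other comparisons. In SF 3 passed as higher and none as lower by limma, and the median log2 fold change was 0.16. With an unadjusted limma p under 0.05, 7 were higher and none lower, beside 22.1% and 20.1% of all tested genes. The 3 are 17.6% of the tested receptors, near the 17.5% of all tested genes. These were Il7r (6.56, SE 1.18, adjusted p = 0.010), the IL-18 receptor accessory chain Il18rap (3.66, SE 0.77, adjusted p = 0.017) and the IL-4 receptor chain Il4ra (1.39, SE 0.24, adjusted p = 0.0091). In NC only replicate 2 held Il7r, at 19.5 adjusted reads, so the size of its change depends on that library and on the constant. With 85.9, 284 and 86.3 adjusted reads, Il7r lay above NC in MJ too, but did not pass there (5.56 by limma, SE 1.25, adjusted p = 0.058). In MJ 2 passed as higher, 11.1% of those tested beside 4.26% of all genes, with a median of 0.45, Il18rap (4.44, SE 0.81, adjusted p = 0.034) and the IL-17 receptor Il17ra (1.21, SE 0.16, adjusted p = 0.014). Il17ra in SF (0.99, adjusted p = 0.0093) and Il2rg, the common gamma chain, in SF (0.77, adjusted p = 0.013) and MJ (0.83, adjusted p = 0.027) missed only the fold limit. Il18rap had 0, 5.51 and 6.90 adjusted reads in NC, 57.3, 70.7 and 124 in MJ and 41.1, 51.9 and 46.1 in SF. Both treated groups thus lay above NC while Il18 itself overlapped, and Il18rap reached the filter against NC only through the treated groups. Il18r1, the other IL-18 receptor chain in the list, had a read only in MJ replicate 2, at 3.93 adjusted reads. The IL-1 receptor gene Il1r1 had no read in MJ. It had a read in NC only in replicate 2, at 1.09, and at most 7.81 in SF. Both Il18r1 and Il1r1 were under the filter in every comparison. None of the 18 receptors passed in SF against MJ by limma, beside 10.1% of all tested genes, and the median was -0.05. At an unadjusted p under 0.05, 1 was higher and 4 were lower in SF, beside 18.6% and 16.6% of all tested genes, and of the 4 Il1rl1 (-0.85, adjusted p = 0.049) and Il18bp (-0.80, adjusted p = 0.024) missed only the fold limit.

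All 15 genes of interleukin processing and IL-1 receptor signalling were listed and 14 were tested in each comparison. Pycard was under the filter. It had 5.61, 7.53 and 8.90 adjusted reads in NC, 1.04, 9.70 and 2.93 in MJ and 1.94, 11.6 and 5.51 in SF. In SF 5 passed as higher and none as lower by limma, with a median of 0.22. The 5 are 35.7% of those tested, beside 17.5% of all tested genes. Gsdmd, the pore-forming gasdermin D (-0.72), and the kinase Irak1 (-0.45) were lower at an adjusted p of 0.039 each and missed only the fold limit. Casp1, the protease that activates IL-1β and IL-18, rose by 2.50 on the log2 scale (SE 0.30, adjusted p = 0.0030), and Casp4, the inflammatory caspase that senses lipopolysaccharide, by 2.66 (SE 0.28, adjusted p = 0.0019). The inflammasome sensor Nlrp3 rose by 1.03 (SE 0.28, adjusted p = 0.037). The 2 others that rose are known as brakes on IL-1 receptor signalling, Irak3 by 5.39 (SE 0.52, adjusted p = 0.0014) and Tollip by 1.33 (SE 0.14, adjusted p = 0.0021, all by limma). Irak3 went from 19.6, 13.1 and 3.94 adjusted reads in NC to 182, 225 and 205 in MJ and 391, 569 and 472 in SF, and the 3 groups did not overlap. In MJ 3 passed as higher, 21.4% of those tested beside 4.26% of all genes, with a median of 0.13, Irak3 (4.18, adjusted p = 0.011), Nlrp3 (1.01, adjusted p = 0.019) and Casp4 (1.13, adjusted p = 0.025). In SF against MJ Irak3 (1.21, adjusted p = 0.014), Casp1 (1.28, adjusted p = 0.030) and Casp4 (1.53, adjusted p = 0.017) passed as higher, 21.4% of those tested beside 10.1% of all genes, with a median of 0.31.

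The 22 transcription factors known at interleukin promoters were all listed. In SF against NC 22 were tested, 10 passed as higher and none as lower by limma, with a median of 0.93. With an unadjusted limma p under 0.05, 16 were higher and 2 lower, beside 22.1% and 20.1% of all tested genes. The 2 lower ones were not under 0.05 at the adjusted p. The 10 are 45.5% of those tested, beside 17.5% of all tested genes, and 2 of them, Maf and Batf, reached the filter only through SF. Those that rose included the stress-induced factor Atf3 (5.50, SE 1.08, adjusted p = 0.013), the IL-10 activator Maf (5.09, SE 0.31, adjusted p = 3.6e-04), Batf (4.73, SE 0.45, adjusted p = 0.0014) and the interferon regulatory factor Irf7 (4.19, SE 0.44, adjusted p = 0.0019). The size of the Atf3 change depends on NC replicate 2, at 146 adjusted reads against 14.0 in replicate 1 and 5.91 in replicate 3. Nfkbiz, a nuclear partner of NF-κB needed for Il6 induction, rose by 3.39 (SE 0.34, adjusted p = 0.0017), and Cebpd (2.98), Irf8 (2.83), Nfil3 (2.57), Cebpb (1.76) and Bcl3 (1.72) rose as well (adjusted p up to 0.012, all by limma). Maf was near the floor in NC, at 0.860 in replicate 1 and without a read in the other two. It stood at 7.19, 0.927 and 0.957 in MJ and at 31.4, 53.0 and 44.6 in SF, so that SF lay above both other groups, and 127 reads in SF against 1 in NC gave a ratio of 129 (counting interval 22.7 to 5116). Batf had no read in NC, 2.07, 4.80 and 6.85 adjusted reads in MJ and 32.4, 45.4 and 12.1 in SF, where its mean was at least 9.98-fold higher than in NC. The fitted changes of both depend on the constant. In MJ against NC 20 were tested and 4 passed as higher, beside 4.26% of all genes, with a median of 0.58, among them Irf7 (3.62, adjusted p = 0.019), Cebpd (1.54, adjusted p = 0.044) and Nfil3 (1.39, adjusted p = 0.041). In SF against MJ 8 of 22 passed, all higher in SF and 2 of them (Maf and Batf) tested through SF alone, 36.4% beside 10.1% of all genes, with a median of 0.56: Maf (3.78), Batf (2.39), Atf3 (2.35), Nfkbiz (2.10), Cebpd (1.44), Nfil3 (1.18), Bcl3 (1.05) and Irf8 (1.00), with adjusted p from 0.0067 to 0.034.

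**Figure D5:**
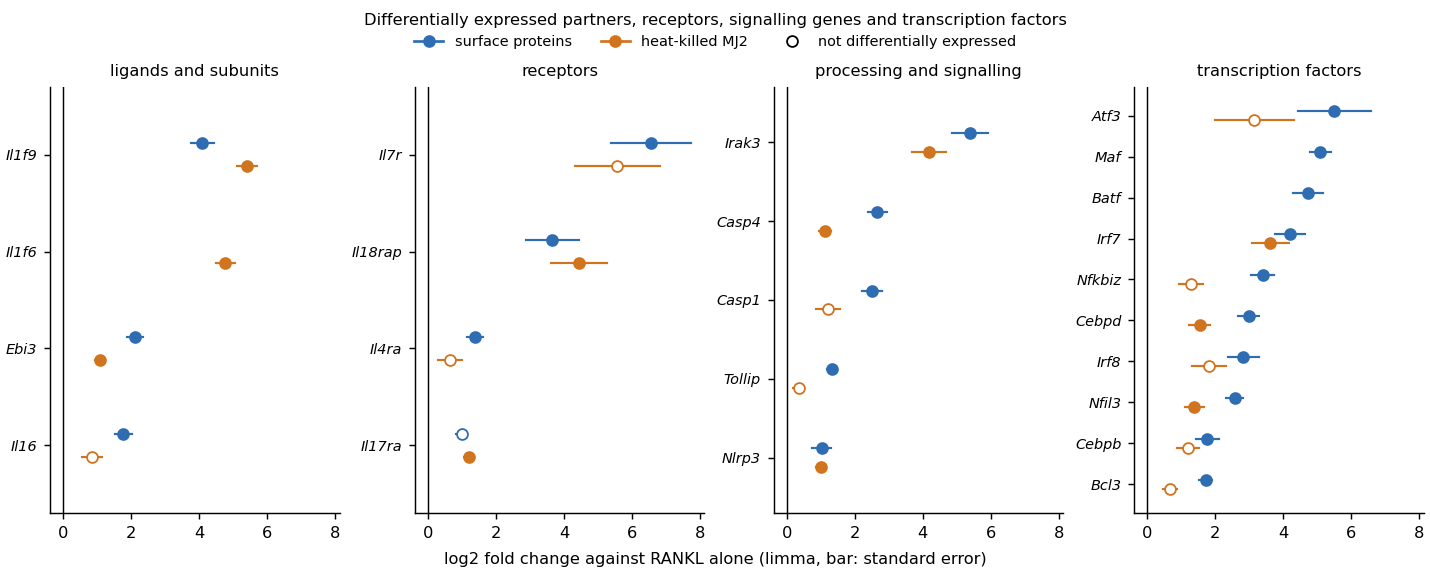
Log2 fold changes against RANKL alone of the ligand, receptor, processing and transcription factor genes named above as past the threshold in at least 1 treatment, with the standard error from limma as a bar and open circles where a gene did not pass; a missing circle means that the gene was under the filter. All points lie to the right of 0, which largely follows from the choice of genes, since every gene drawn passed as higher. Genes that did not pass, such as Gsdmd and Irak1, are not drawn. Irak3 is at 5.39 in SF and 4.18 in MJ, and Il1f9 at 4.09 in SF and 5.40 in MJ.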

How the data were processed

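RNA of 9 RAW264.7 libraries was sequenced from the 3′ end of transcripts as single-end reads of 75 bases. The authors deposited log2 values for 23282 gene rows per library. The study's methods name quantile normalization, but the sorted columns of the libraries are unequal (largest log2 difference 1.60), and how the deposited values were scaled is not given in the sources used here. The submitters' processing notes name Bowtie2, bedtools and mm10, without versions. The values are taken as log2(value + 1): within each library all values from 0.5 to 3.5 adjusted reads lay within 0.25 of a whole step. No 2 libraries were identical, and their r over 11193 genes was 0.946 to 0.964 within groups and 0.823 to 0.921 between groups. The 35 symbols on more than 1 row included no member. Groups and replicate numbers came from the labels.

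Each comparison was fitted with limma 3.58.1 (lmFit and eBayes, R 4.3.3) on the deposited log2 values of its own 6 libraries, for rows that reached 10 adjusted reads in 3 or more libraries, with Benjamini-Hochberg adjustment and no covariate. The code was tested on simulated data. Single genes were also compared by exact two-sided permutation tests. Folds against a group without a read used a floor of 3 adjusted reads per library, and groups of 1 to 3 reads got exact counting intervals. Alternatives changed the scaling, filter, constant, libraries in the fit, replicate block, variance prior and thresholds. The 10 members are named throughout. Of the lists of other ligands, receptors, processing and signalling genes, transcription factors and cell type markers, written from general knowledge, each gene past the threshold is named for the first 4, except 1 gene that is not reported here. Promoters are shown for members that passed in surface proteins against RANKL alone and are in the RefSeq table. The members and lists were chosen with earlier results of these data known. Preparation and plots used Python 3.11.15, pandas 2.3.3, scipy 1.17.1 and matplotlib 3.10.9.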

Additional observations from a re-analysis of the deposited data

How the results depend on the processing

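Il1rn passed in MJ against NC (log2 fold change 3.08 to 3.25) and in SF against MJ (-2.26 to -1.89) under all 16 alternatives, and Il23a in SF against NC under the 12 that tested it (4.48 to 8.47). With other thresholds or filters the counts of genes moved as follows. In SF against NC 1902 genes passed, and 3163 without the fold limit. In MJ against NC 461 passed, 799 at an unadjusted p, 267 without the filter, and in SF against MJ 1098, or 1949 without the fold limit. Leaving out 1 library gave 1357 to 1822, 81 to 347 and 362 to 1176 genes. The lowest counts in MJ against NC came without MJ replicate 1 (81), 3 (116) or 2 (155), and 300 genes passed without NC replicate 3. In SF against MJ they came without MJ replicate 1 (362), MJ replicate 3 (415), SF replicate 2 (591) or SF replicate 3 (672). The cause was not tested beyond the smaller number of libraries.

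The count of members past the threshold was 3 in SF against NC and 1 to 3 with a library left out, 1 without any of SF replicates 1, 2 and 3. It was 2 in MJ against NC, 1 where all 6 libraries had to reach 10 adjusted reads, which leaves Il1b untested, and 1 to 2 with a library left out, 1 without NC replicate 3 or any of the MJ replicates. It was 3 in SF against MJ, 5 at an unadjusted p, 1 without the filter, 1 with a mean of at least 1 adjusted read as filter, and 1 to 3 with a library left out, 1 without MJ replicate 3 or SF replicate 2. The direction of Il18 in MJ against NC turned to 0.01 with equal totals of adjusted reads and ran from -0.35 to 0.21 with a library left out. Il15 in MJ against NC ran from 0 to 0.35. Il10 in SF against NC passed with a constant of 2 (adjusted p = 0.045), in a fit over all 9 libraries (0.021) and in a robust fit (0.012), and Il1b in SF against MJ in a robust fit (0.017), over all 9 libraries (0.050) and without MJ replicate 2 (0.030). Il23a in SF against MJ did not pass with a constant of 0.1 (0.10) or with the mean filter (0.070), nor did Il15 there without the filter (0.064) or with the mean filter (0.054), nor Il1b in MJ against NC without the filter (0.061). Il23a in SF against NC and Il1b in MJ against NC were untested where a library of the group with reads was left out.

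Replicate numbers are shared by the groups, but the labels do not say what they mark. Deviations of same-numbered libraries correlated at 0.018 to 0.106, and not every value was over 0.1, so the numbers were not taken to pair the libraries. Each was highest with the own number, in 9 of 9 pairs, which is a hint from the data and not from the design. With a replicate block 1813 genes passed in SF against NC, 289 in MJ against NC and 980 in SF against MJ, Il15 did not pass in SF against NC (adjusted p = 0.053) or SF against MJ (0.076), and Il10 passed in SF against NC (0.035). Equal totals moved the share of higher calls in SF against MJ from 50.5% to 41.3%. At this depth, differences between groups in Il12b and Il27 were not detectable.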
